A study of Homo sapiens with 6 samples.

Results

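The mitochondrial ribosomal proteins described here are the 78 protein-coding genes whose symbols start with MRPL or MRPS followed by a number, out of 30327 genes counted in the series. By symbol, 49 are MRPL, named for the large subunit, and 29 are MRPS, named for the small subunit. This split follows the symbols and need not match the subunit in which a protein sits. The rule used names alone, not expression. The 6 RNA-seq libraries are all from SK-BR-3, an established HER2-overexpressing breast cancer cell line. Transfection was with a nontargeting siRNA for 3 of them (si_NC) and with an siRNA against GRB2 for the other 3 (si_GRB2), GRB2 being an adaptor protein of receptor tyrosine kinases. The sources conflict on the treated group. The library descriptions name si_GRB2, and the paper's results and siRNA methods describe knockdown, whereas the titles, cell type and genotype labels and the paper's account of its sample groups name overexpression of GRB2. The methods give a single siRNA against GRB2, and no source used here says that the replicates were separate cultures, so p-values measure only the spread between these libraries, which may be technical.

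Mitochondria keep their own ribosome, which translates the few membrane proteins of oxidative phosphorylation that mitochondrial DNA encodes. Its RNAs come from mitochondrial DNA, but all its proteins are encoded in the nucleus, made in the cytosol and imported. Some have counterparts in bacterial ribosomes, while others were added in the mitochondrial lineage. MRPS36 carries the family's symbol but is a subunit of the oxoglutarate dehydrogenase complex rather than a ribosomal protein. Of the other members, 31 were assigned to the mitochondria-specific class and 46 to the class with a bacterial counterpart.

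GRB2 itself was measured first, as a check of the labels. In units of CPM (reads relative to the library's total, after TMM normalization), its level was 124, 129.5 and 126 with si_NC, and 27.8, 28.1 and 29.6 with si_GRB2. The groups did not overlap, and edgeR's quasi-likelihood test gave a log2 fold change of −2.15 ± 0.040 (standard error) with an adjusted p = 3.87e-15. The libraries labelled si_GRB2 therefore held less GRB2 RNA, in the direction of the descriptions and against that of the titles and genotype labels. Each library had 24810378 to 28532480 reads counted on genes. The epithelial and HER2-amplicon genes KRT8, KRT18, KRT19, EPCAM, ERBB2 and GRB7 were all detected, with means of at least 137 CPM in both groups, ERBB2 being higher in si_GRB2 and the other 5 lower. Of the genes of blood, vessel and stromal cells, PTPRC, PECAM1, CD3E, DCN and LUM had 1 to 14 reads each over all libraries. COL1A1 had 723 reads, with means of 4.50 CPM in si_NC and 4.57 CPM in si_GRB2, and did not pass the test. Within-group library pairs differed by more than sampling noise, so no library was counted as a repeat of another.

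All 78 mitoribosomal protein genes had enough reads to test, from 746 reads over the 6 libraries for MRPL2 to 84040 for MRPL13. In si_GRB2, 25 members were lower and 2 were higher (adjusted p under 0.05, edgeR's quasi-likelihood test, Benjamini-Hochberg adjustment over 15801 genes), and 51 did not pass. Of all tested genes, 15.5% were lower and 15.2% were higher, against 32.1% and 2.56% of the members. In either direction, 34.6% of the members passed, close to the 30.6% of all tested genes. The changes were small. The members' log2 fold changes lay between −0.42 and 0.14, and their median was −0.043, where the median over all tested genes was 0.0019. None passed the study's limits (more than 1.5-fold in either direction, here with an adjusted p under 0.01) in edgeR or in DESeq2. Of all tested genes 2.52% did, 0.829% higher and 1.69% lower. At an unadjusted p under 0.05, 27 members were lower and 6 were higher in edgeR, beside 19.8% and 19.7% of all tested genes.

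**Figure D1:**
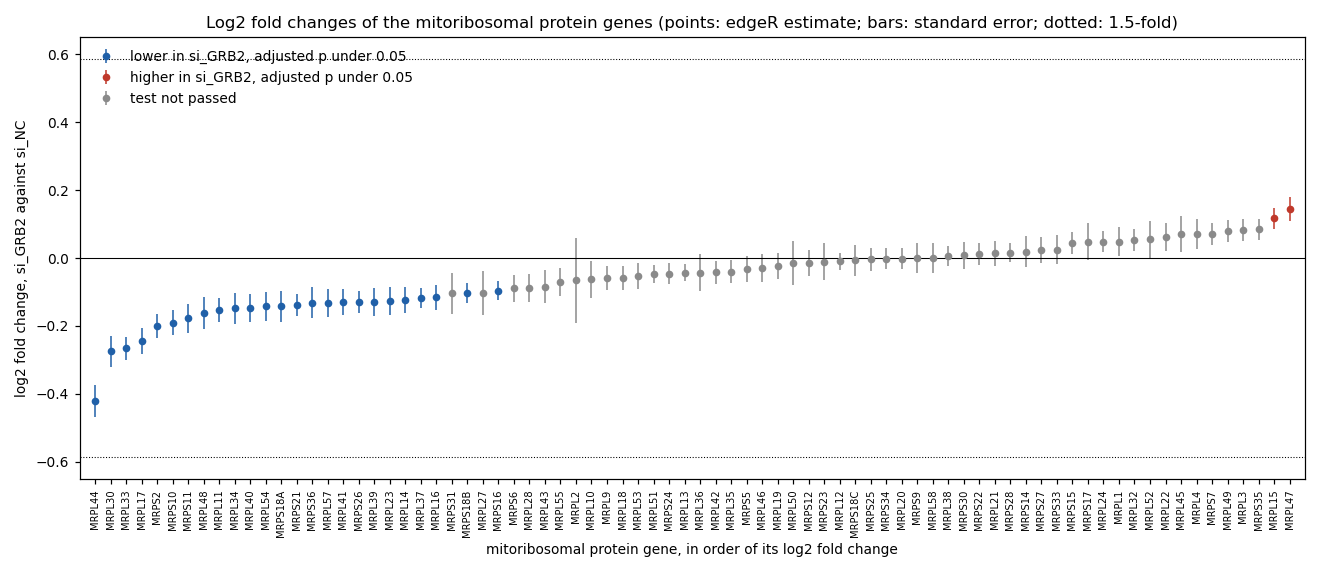
Log2 fold changes of the 78 mitoribosomal protein genes (vertical axis, si_GRB2 against si_NC) in order of size, with points for edgeR's estimate, bars for its standard error and dotted lines at 1.5-fold. The 25 blue genes were lower and the 2 red genes higher (adjusted p under 0.05), all lie inside the dotted lines, and MRPL44 at −0.42 stands below the rest.

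The balance of higher and lower members depended on how the libraries were scaled. TMM factors were 0.976 to 0.988 in si_NC and 1.02 in each si_GRB2 library. With library size alone, 9 members were lower and 11 were higher, their median was 0.0076, and the median over all tested genes rose to 0.052, with 3447 of 15801 genes higher and 1733 lower. The share of lower members was then near that of all tested genes. The members' median lay 0.044 to 0.045 below that of all tested genes under TMM, DESeq2 size factors, upper-quartile factors and library size alone. Scaling moves all genes by about the same amount, so this difference could hardly vary between these 4. Over the other settings the difference ran from −0.059 with no filter on low counts to −0.023 with limma on log2(FPKM + 1). As shares of the raw reads, the members took 0.80%, 0.81% and 0.80% in si_NC and 0.81%, 0.80% and 0.82% in si_GRB2, so that the groups overlapped. Their summed level after TMM was 8097, 8296 and 8179 CPM in si_NC and 7996, 7898 and 8021 CPM in si_GRB2, without overlap and with a ratio of 0.973. On this scale the sum over all genes had a ratio of 0.966, also without overlap, so the members' sum fell no more than the total. The authors' FPKM (fragments scaled by gene length and library total) summed to 3246 ± 140 (SD, n = 3) and 3239 ± 70.9 (SD, n = 3), a difference smaller than the spread. In bulk RNA, a fall in some of the cells and a smaller fall in all of them cannot be told apart.

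**Figure D2:**
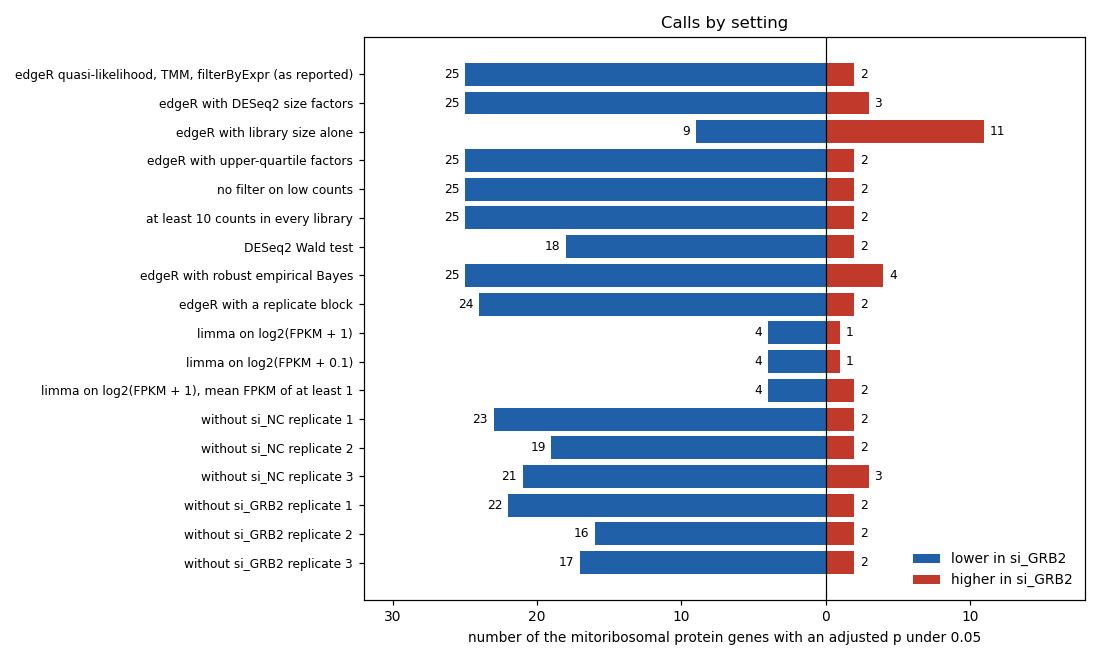
Number of mitoribosomal protein genes with an adjusted p under 0.05 (horizontal axis, lower to the left in blue, higher to the right in red) as reported and under 17 other settings. Between 16 and 25 genes were lower in the count-based settings other than library size alone, which gave 9 lower and 11 higher, while limma on FPKM gave 4 lower. Of all tested genes, library size alone gave 1733 of 15801 lower and 3447 higher. Limma on log2(FPKM + 1) gave 1008 of 15800 lower and 1625 higher. In these 2 settings the lower shares were near those of the members.

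Over all 78 members, 28 changed sign in at least 1 of 17 alternative settings. Each of the 27 members that passed kept its direction in all 17, and 5 of them passed in every one. These were MRPL44, MRPL30, MRPL33 and MRPL17, which were lower, and MRPL47, which was higher. The count of lower members was 16 without si_GRB2 replicate 2 and at most 23 when another library was left out.

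The promoters of these 5 genes, with that of the most abundant member by FPKM, MRPL12, are given first, because they are the stretches of DNA from which the RNAs described next start. Each runs 280 bases, from 250 before the annotated start to 30 after it, 5′ to 3′ on the gene's strand, from RefSeq on GRCh38.p14. Capitals mark letters matching 1 of 5 short motifs on either strand: CCGGAAG (ETS family), AAGATGGCG (YY1), GCGCNTGCG (NRF1), GGGCGG (SP family) and CACGTG (E-box). The windows are chr2:223957213-223957492 (plus strand) for MRPL44, chr2:99180934-99181213 (plus strand) for MRPL30, chr2:27771469-27771748 (plus strand) for MRPL33, chr11:6683311-6683590 (minus strand) for MRPL17, chr3:179604609-179604888 (minus strand) for MRPL47 and chr17:81703117-81703396 (plus strand) for MRPL12.
MRPL44: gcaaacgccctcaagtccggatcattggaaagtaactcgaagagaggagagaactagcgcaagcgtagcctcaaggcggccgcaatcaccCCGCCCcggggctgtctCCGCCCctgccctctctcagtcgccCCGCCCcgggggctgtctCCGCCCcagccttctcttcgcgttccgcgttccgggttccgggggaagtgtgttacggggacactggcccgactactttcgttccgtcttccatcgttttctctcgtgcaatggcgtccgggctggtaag
MRPL30: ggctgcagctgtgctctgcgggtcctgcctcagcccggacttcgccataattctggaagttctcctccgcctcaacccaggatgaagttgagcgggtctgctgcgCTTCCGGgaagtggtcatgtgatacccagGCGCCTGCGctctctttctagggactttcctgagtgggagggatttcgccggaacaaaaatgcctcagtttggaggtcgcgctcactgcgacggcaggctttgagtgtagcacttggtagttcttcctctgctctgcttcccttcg
MRPL33: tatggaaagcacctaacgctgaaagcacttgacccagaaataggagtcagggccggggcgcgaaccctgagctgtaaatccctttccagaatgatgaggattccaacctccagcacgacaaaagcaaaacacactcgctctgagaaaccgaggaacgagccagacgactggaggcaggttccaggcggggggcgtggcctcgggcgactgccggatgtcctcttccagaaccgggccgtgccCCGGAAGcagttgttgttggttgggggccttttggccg
MRPL17: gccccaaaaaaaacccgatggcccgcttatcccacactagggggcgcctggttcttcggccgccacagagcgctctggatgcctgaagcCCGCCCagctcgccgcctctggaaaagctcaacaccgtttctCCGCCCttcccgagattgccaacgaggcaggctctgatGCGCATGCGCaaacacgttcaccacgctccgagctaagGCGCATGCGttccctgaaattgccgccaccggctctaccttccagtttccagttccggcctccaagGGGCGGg
MRPL47: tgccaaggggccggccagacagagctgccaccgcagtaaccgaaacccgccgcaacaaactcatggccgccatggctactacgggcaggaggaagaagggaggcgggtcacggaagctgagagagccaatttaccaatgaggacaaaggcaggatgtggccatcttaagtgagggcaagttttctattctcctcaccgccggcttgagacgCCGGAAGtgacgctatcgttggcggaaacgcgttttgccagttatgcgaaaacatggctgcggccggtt
MRPL12: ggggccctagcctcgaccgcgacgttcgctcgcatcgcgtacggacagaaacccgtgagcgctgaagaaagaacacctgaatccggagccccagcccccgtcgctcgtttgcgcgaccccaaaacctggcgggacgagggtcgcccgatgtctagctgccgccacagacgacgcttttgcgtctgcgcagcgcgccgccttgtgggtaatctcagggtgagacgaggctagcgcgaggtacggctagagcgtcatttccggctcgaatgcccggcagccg

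The MRPL44 window held only GGGCGG matches, and those of MRPL33 and MRPL47 a single CCGGAAG match each. MRPL30 had a CCGGAAG and a GCGCNTGCG match, MRPL17 had GGGCGG and GCGCNTGCG matches, 1 pair of which overlaps as a palindrome, and MRPL12 had none of the 5. RefSeq windows of 300 bases were found for 69 of the 78 members. CCGGAAG was present in 30 of them (43.5%), against 20.0% of 9963 windows of tested protein-coding genes. AAGATGGCG was present in 13 (18.8%), against 4.4%. GCGCNTGCG was present in 17.4% against 15.5%, GGGCGG in 59.4% against 73.4%, and CACGTG in 7.2% against 10.3%. Among the 23 lower members with a window, CCGGAAG was present in 11 (47.8%), and among the 45 that did not pass, in 18 (40.0%). In the same order, AAGATGGCG was present in 3 and 10 of them (22.2% of the latter), GCGCNTGCG in 21.7% and 15.6%, GGGCGG in 52.2% and 64.4%, and CACGTG in 4.3% and 8.9%, and these shares were not compared by a test. Median GC content was 60.3% in the members' windows and 66.0% in those of tested protein-coding genes. These are letter matches, and binding was not measured.

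MRPL44, a mitochondria-specific protein of the large subunit with a ribonuclease III-like fold, fell the most. It lies on chromosome 2 of GRCh38 from 223957463 to 223967714, with 4 exons in its MANE Select transcript. Its level was 53.8, 54.3 and 49.0 CPM in si_NC and 39.4, 39.3 and 38.5 CPM in si_GRB2. All 3 si_GRB2 libraries lay well below the lowest si_NC library. The level was 0.747 times that of si_NC (log2 fold change −0.42, standard error 0.046, adjusted p = 3.83e-06, edgeR), and −0.47 to −0.36 over the alternatives. On the opposite strand, another annotated gene covers part of its exons, 13.3% of their bases.

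MRPL33 (chromosome 2 from 27771717 to 27988087), a small protein of the large subunit with a bacterial counterpart, was at 126, 129 and 120.1 CPM in si_NC and 105, 103 and 104 CPM in si_GRB2. The si_GRB2 libraries lay close together and below all si_NC libraries (log2 fold change −0.27, standard error 0.034, adjusted p = 1.92e-05, edgeR). Of its exon bases, 21.1% are shared with BABAM2 on the same strand. MRPL30 (chromosome 2 from 99181152 to 99199561), another large-subunit protein with a bacterial counterpart, was at 66.7, 69.7 and 68.1 CPM in si_NC and 56.8, 52.7 and 59.6 CPM in si_GRB2. Its si_GRB2 libraries varied more, but the highest was below the lowest si_NC library (log2 fold change −0.27, standard error 0.045, adjusted p = 0.000205, edgeR). Other genes on the same strand share 11.8% of the exon bases of MRPL30.

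MRPL17 (chromosome 11 from 6680385 to 6683340), also of the large subunit and shared with bacteria, was at 75.0, 76.0 and 79.4 CPM in si_NC and 64.7, 66.3 and 63.5 CPM in si_GRB2. None of its exon bases is shared with another gene, and the groups did not overlap (log2 fold change −0.24, standard error 0.038, adjusted p = 0.000125, edgeR). MRPS2 (chromosome 9 from 135499984 to 135504673) had the largest fall of the MRPS genes. It was at 96.9, 96.2 and 100.7 CPM in si_NC and 86.5, 85.7 and 83.7 CPM in si_GRB2, again without overlap (log2 fold change −0.20, standard error 0.035, adjusted p = 0.000343, edgeR).

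MRPS10, a small-subunit protein with a bacterial counterpart, showed the tightest si_NC values of the named members, at 61.3, 61.4 and 61.1 CPM. In si_GRB2 it was at 53.0, 54.3 and 53.7 CPM (log2 fold change −0.19, standard error 0.037, adjusted p = 0.000895, edgeR). MRPS11, also of the small subunit, was at 54.9, 56.9 and 59.0 CPM in si_NC and 48.6, 50.6 and 51.7 CPM in si_GRB2. Its groups did not overlap either (log2 fold change −0.18, adjusted p = 0.00424, edgeR). MRPL48, a mitochondria-specific protein, had a wide si_NC group, with 70.7 CPM in replicate 2 beside 63.0 and 62.7 CPM, against 57.5 to 59.6 CPM in si_GRB2 (log2 fold change −0.16, adjusted p = 0.0146, edgeR). The remaining members named for the size of their fall were MRPL11, MRPL34, MRPL40 and MRPL54, with log2 fold changes of −0.15 for each of the first 3 and −0.14 for MRPL54. The 13 other lower members, from MRPS18A to MRPS16, had log2 fold changes between −0.14 and −0.097, and MRPS36 at −0.13 is the one that is not a ribosomal protein. MRPS36 was also closest to the threshold on the inside (adjusted p = 0.0346, edgeR), and MRPS35 was closest on the outside (log2 fold change 0.085, adjusted p = 0.0514, edgeR).

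Both higher members belong to the large subunit and have bacterial counterparts. MRPL47 (chromosome 3 from 179588285 to 179604649) was at 125, 131 and 125 CPM in si_NC and 142, 134 and 145 CPM in si_GRB2. Its lowest si_GRB2 library, replicate 2, lay just above the highest si_NC library (log2 fold change 0.14, standard error 0.035, adjusted p = 0.00541, edgeR). MRPL15 (chromosome 8 from 54135241 to 54148514) was at 132, 136 and 136 CPM in si_NC and 145, 143 and 149.8 CPM in si_GRB2 (log2 fold change 0.12, standard error 0.032, adjusted p = 0.00988, edgeR). Neither reached the size of the leading falls.

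**Figure D3:**
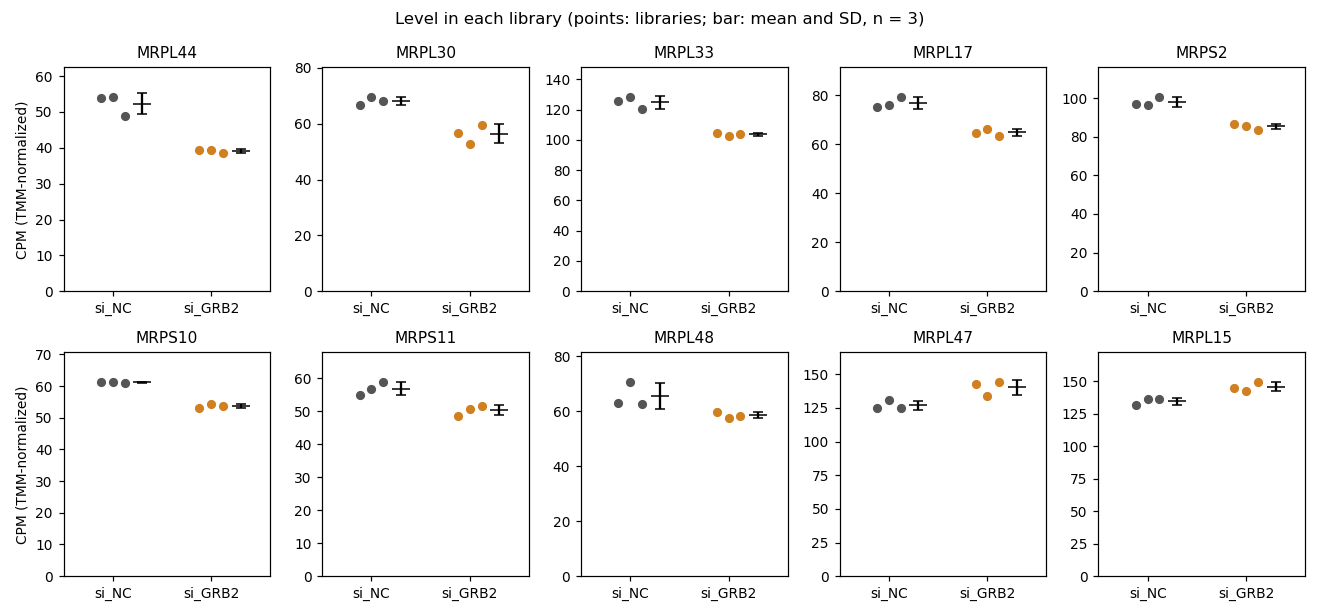
TMM-normalized CPM (vertical axes, from 0) of the 8 members with the largest falls and the 2 that were higher, with a point for each of 3 si_NC and 3 si_GRB2 libraries and a bar for the mean and SD. The groups do not overlap in any panel, with 38.5 to 39.4 CPM in si_GRB2 against 49.0 to 54.3 CPM in si_NC for MRPL44.

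Over all members, 37 (47.4%) had no overlap between the groups, 31 lower and 6 higher, where 42.3% of all tested genes had none, 21.2% lower and 21.1% higher. By symbol, 16 of 49 MRPL genes (32.7%) were lower and 2 higher (4.08%), and 9 of 29 MRPS genes (31%), MRPS36 included, were lower and none higher. Of all tested genes, 15.5% were lower and 15.2% higher. Their median log2 fold changes were −0.053 and −0.011. By class, 11 of the 31 mitochondria-specific members (35.5%) were lower and none higher. Of the 46 with a bacterial counterpart, 13 were lower (28.3%) and 2 higher (4.35%), and the classes were not compared by a test. The summed MRPL level was 0.973 and the summed MRPS level 0.974 of that in si_NC, where the sum over all genes was 0.966. Fold changes bore little relation to length or level across the 78 genes, as a description over genes that share the same libraries (Spearman's rho 0.12 for MANE Select transcript length).

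Levels can be compared between members only per length. In the authors' FPKM the highest were MRPL12, the stalk protein that also binds the mitochondrial RNA polymerase, and MRPL51 and MRPS34, both mitochondria-specific. MRPL12 was at 287, 300.4 and 320.4 FPKM in si_NC and 299.9, 315 and 314 FPKM in si_GRB2, with full overlap between the groups. The means over 6 libraries were 306 FPKM for MRPL12, 141 for MRPL51 and 139.8 for MRPS34, and the SDs of MRPL51 and MRPS34 in si_NC (5.21 and 9.08 FPKM) do not separate those neighbours. Their log2 fold changes were −0.0096 for MRPL12, −0.048 for MRPL51 and −0.0023 for MRPS34. No member of this trio passed the test, and all 3 changed sign with library size alone.

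The lowest were MRPL46 at 5.59 FPKM, MRPL42 at 4.28 and MRPL2, part of the catalytic core, at 1.75. In every library these 3 kept this order among themselves, but MRPS23, next above with a mean of 5.62 FPKM, was below MRPL46 in 3 of 6 libraries. None passed the test, with log2 fold changes of −0.029 for MRPL46, −0.042 for MRPL42 and −0.065 for MRPL2, and all 3 changed sign in at least 1 alternative. The length used matters here. Per kilobase of the MANE Select transcript, MRPL13 was highest at 418 CPM per kb, ahead of MRPL12 at 375, and MRPL2 was again lowest at 3.84. MRPL42 was again next to last at 5.52, but MRPL46 at 44.5 ranked 49 of 78, so it was among the lowest by FPKM alone. The orders had a Spearman's rho of 0.87 over the 78 genes. The MRPL42 transcript has 15557 bases, beside a median of 1242. Of exon bases, 69.5% in MRPL12 and 29.2% in MRPL2 are shared with another gene on the same strand, so that their counts are uncertain. At least 10% of exon bases lie under another gene, on either strand, in 29 members, of which 7 were lower and none higher. This lower share is smaller than the 32.1% of all 78 members, a difference that was not tested. Of all tested genes, 15.5% were lower.

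**Figure D4:**
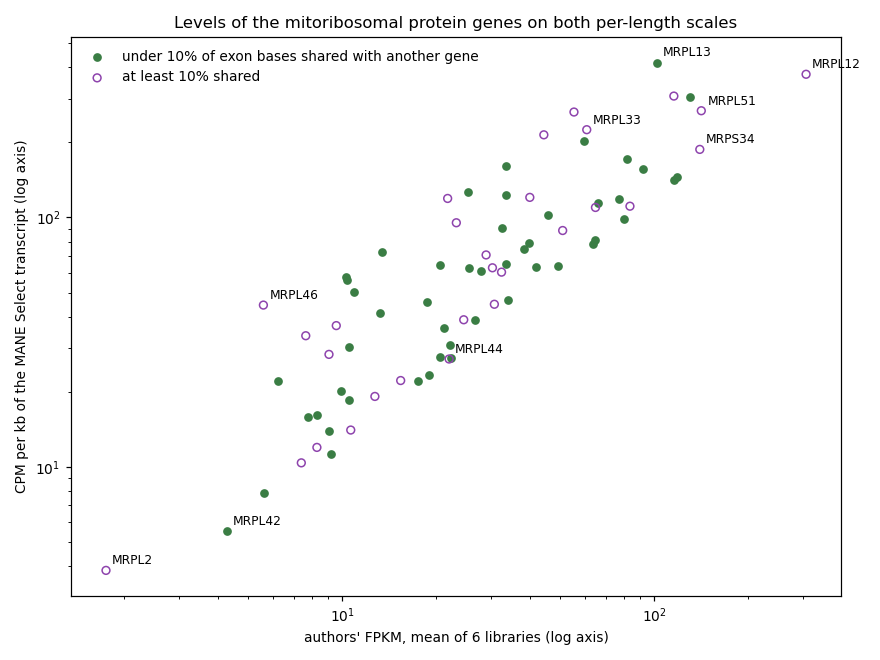
Mean FPKM over 6 libraries (horizontal, log axis) against CPM per kilobase of MANE Select transcript (vertical, log axis) for the 78 members, with open circles where at least 10% of exon bases are shared with another gene. MRPL2 is lowest on both scales (1.75 FPKM), whereas MRPL12 is highest by FPKM (306) and MRPL13 per kilobase of transcript (418).

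Many members start close to a neighbouring gene. In 27 of the 78 (34.6%), another protein-coding gene started on the opposite strand within 1000 bases, as in 13.8% of 12294 tested protein-coding genes. Of the 26 partners tested, 5 were higher, 5 were lower and 16 did not pass. These shares are near those of all tested protein-coding genes, 17.9% higher and 18% lower. MRPL47 starts 156 bases from NDUFB5, a complex I subunit, which was also higher (log2 fold change 0.097, adjusted p = 0.0418, edgeR). MRPL30 starts 126 bases from MITD1, which acts in the abscission of dividing cells and was also lower (log2 fold change −0.22, adjusted p = 0.00935, edgeR). MRPL57 and its partner SKA3 were both lower as well.

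Other pairs moved apart. Beside the lower members MRPL37, MRPL14 and MRPS18B, the partners CYB5RL, TMEM63B and PPP1R10 were higher, with log2 fold changes of 0.53, 0.30 and 0.17. MRPS11 and MRPL46 start 320 bases from each other, and MRPS11 was lower while MRPL46 did not pass; the difference between them was not tested. Over the tested pairs, Spearman's rho of the log2 fold changes was 0.15, as a description in which the MRPS11 and MRPL46 pair counts from both sides.

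The proteins of the mitoribosome with other names were not part of the rule. AURKAIP1, a small-subunit protein, was at 200.3, 211 and 209.5 CPM in si_NC and 144, 141 and 133 CPM in si_GRB2. Its fall was larger than that of any MRPL or MRPS gene (log2 fold change −0.57, standard error 0.034, adjusted p = 4.06e-09, edgeR), a difference that was not itself tested. CHCHD1 was also lower (−0.14, adjusted p = 0.00244, edgeR), and the other 3 of these 5 genes did not pass, among them the small-subunit protein DAP3 at 0.045.

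Of 72 genes of mitochondrial translation outside the rule, 70 were tested. Of these, 11 were lower (15.7%, near the 15.5% of all tested genes) and 6 higher (8.57%, below the 15.2% of all tested genes). Their median log2 fold change was −0.033. Among the 27 tested genes of ribosome assembly and rRNA modification, 3 were lower and 3 higher, 11.1% in each direction and below the shares of all tested genes. The rRNA methyltransferase MRM1 (−0.41), METTL15 (−0.37) and METTL17 (−0.18) were lower, and the assembly factor RCC1L (0.17), the mitochondrial RNA-processing protein FASTKD5 (0.16) and the pseudouridine synthase family member RPUSD4 (0.14) were higher. Of 16 translation factors and mRNA-handling genes, 6.25% were lower and 18.8% higher. The release factor family member MTRF1L fell by 0.35 on the log2 scale, while the elongation factor GFM1 (0.13), the initiator tRNA formyltransferase MTFMT (0.22) and the release factor family member MTRF1 (0.22) were higher.

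Of 17 mitochondrial tRNA synthetases, 3 were lower (17.6%, near the 15.5% of all tested genes) and none was higher, with log2 fold changes of −0.28 for TARS2 and −0.18 for YARS2. Of 5 genes of mitochondrial DNA transcription, TFB2M, a transcription initiation factor, was at 35.5, 39.6 and 36.4 CPM in si_NC and 21.0, 21.0 and 22.6 CPM in si_GRB2. It was the one gene of these lists past the study's limits (log2 fold change −0.79, standard error 0.055, adjusted p = 2.16e-08, edgeR). MTERF1 was lower at −0.18, and TFAM at −0.11 did not pass (adjusted p = 0.0700, edgeR). TSFM and MRM2 had too few reads to test, 20 and 4 in all, and 67.3% and 90.9% of their exon bases are shared with another gene on the same strand. With library size alone, 9 of the 70 genes were lower and 11 higher, beside 1733 and 3447 of all 15801 tested genes.

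**Figure D5:**
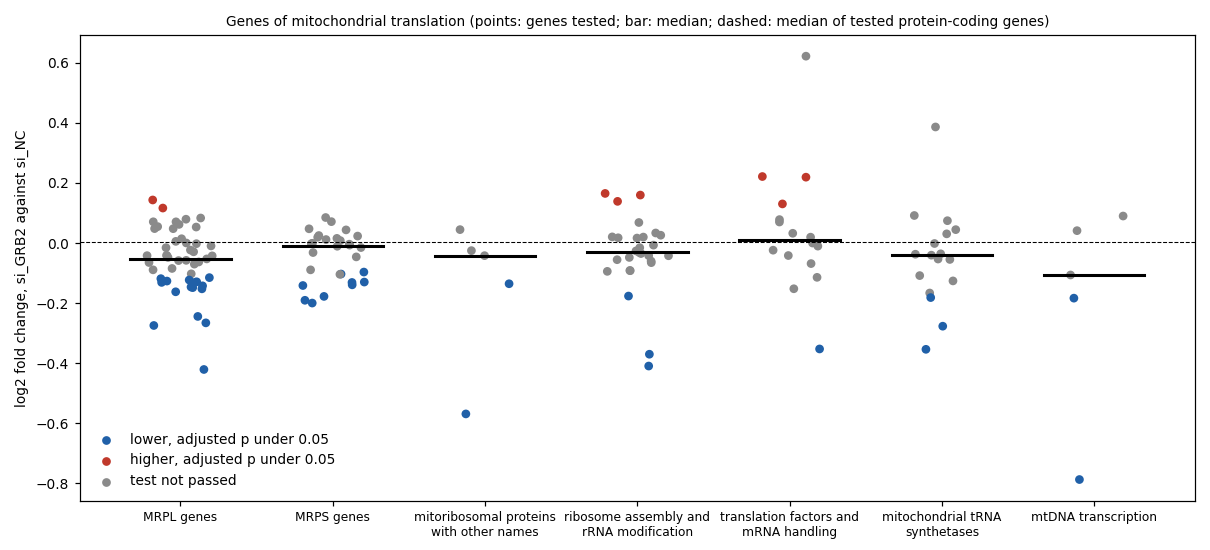
Log2 fold changes (vertical axis, si_GRB2 against si_NC) of the tested genes of mitochondrial translation by list, with points for genes, bars for list medians and a dashed line at the median of tested protein-coding genes. The MRPL genes (median −0.053) and MRPS genes (−0.011) lie within 0.42 of 0, and TFB2M at −0.79 and AURKAIP1 at −0.57 are the lowest points.

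Beside the mitoribosomal proteins, 62 of 86 cytosolic ribosomal protein genes were lower and 1 higher (median log2 fold change −0.11). Of 81 nuclear-encoded respiratory chain subunit genes, 6 were lower (7.41%) and 11 higher (13.6%), beside 15.5% and 15.2% of all tested genes (median −0.0017 for the subunit genes). Of the 13 protein genes encoded in mitochondrial DNA, 12 were lower and none higher (median −0.26), and their summed level went from 79563 ± 2458 to 66540 ± 1378 CPM (SD, n = 3 for each). The members' median thus lay between those of the cytosolic ribosomal proteins and of the respiratory chain subunits, and the differences between the lists were not tested. The part of these abundant RNAs in the members' values was not tested.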

How the data were processed

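Poly(A) RNA of 6 SK-BR-3 libraries (3 si_NC, 3 si_GRB2, grouped by the labels' descriptions) was sequenced with a strand-specific kit. The authors trimmed the reads, aligned them to GRCh38 with HISAT2 and deposited counts of uniquely mapped reads per gene, not normalized. The authors also deposited FPKM per gene. The counting tool, its strand setting and the annotation release are not given in the sources used here.

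From the counts, edgeR 4.0.16 (R 4.3.3) with TMM factors and filterByExpr kept 15801 genes, and its quasi-likelihood test compared si_GRB2 with si_NC without covariates, adjusting p by Benjamini-Hochberg over these genes. Standard errors were obtained from each estimate and its F statistic (estimate over the root of F). Depth was 24810378 to 28532480 reads per library, and genes with few reads have larger standard errors. The test was checked on simulated counts. Alternatives were DESeq2 1.42.0, other scalings and filters, a robust fit, a replicate block, an adjusted p under 0.01, limma 3.58.1 on log2 FPKM with pseudocounts of 1 or 0.1, and leaving out each library.

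Positions and overlaps came from GENCODE 44, in which all 78 members were found, 72 with the same version. Named genes were GRB2, members past the study's limits, the 12 largest rises and 12 largest falls among passing members without overlap, the 3 highest and 3 lowest by FPKM, and, per related list, the 3 with the smallest adjusted p and those past the study's limits. Other named genes (closest to the threshold, most abundant per kilobase, promoter partners, remaining list members) were chosen after their values were seen. A gene that the rule names is not reported here. The members and lists were chosen with earlier results of these data known. Annotation tables and figures were made in Python 3.11.15 (pandas 2.3.3, numpy 2.4.6, matplotlib 3.10.9). fRIP-seq libraries and alternative splicing were not analysed here.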

Additional observations from a re-analysis of the deposited data

How the results depend on the processing

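GRB2 stayed lower in every setting (log2 fold change −2.18 to −1.91), and no member passed the study's limits in any. The members' lower and higher counts moved to 9 and 11 with library size alone, to 4 and 1 with limma on log2(FPKM + 1) or log2(FPKM + 0.1), and to 4 lower with a mean FPKM of at least 1. A robust fit gave 4 higher, and an adjusted p under 0.01 gave 11 lower. The members' median changed sign, to 0.0076 with library size alone, 0.00092 with limma on log2(FPKM + 1), with or without the FPKM minimum, and 0.00099 on log2(FPKM + 0.1). DESeq2 gave 18 lower and 2 higher. Leaving out each library gave 16 to 23 lower, 2 to 3 higher and medians of −0.055 to −0.033. The cause of these shifts was not tested.

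The other mitochondrial translation genes had 11 higher with library size alone, 3 higher with DESeq2 or an adjusted p under 0.01, and 6, 5 and 6 lower with limma on log2(FPKM + 1), on log2(FPKM + 0.1) and with the FPKM minimum. Leaving out each library gave 3 to 6 higher, with 3 without si_NC replicate 1, without si_NC replicate 2 and without si_GRB2 replicate 3. It gave 11 to 12 lower. Over all tested genes, limma gave 1008, 1023 and 987 lower, library size alone gave 1733 lower, and an adjusted p under 0.01 gave 1573 higher. With library size alone and with limma on log2(FPKM + 1), the share of lower mitoribosomal members was near that of all tested genes.

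Among named members, sign changed in genes that had not passed. With library size alone the log2 fold changes were 0.041 for MRPL12, 0.0023 for MRPL51, 0.048 for MRPS34, 0.021 for MRPL46 and 0.0083 for MRPL42. With limma on log2(FPKM + 1), with or without the FPKM minimum, they were 0.034 for MRPL12, 0.041 for MRPS34, 0.011 for MRPL46 and 0.0019 for MRPL42, and on log2(FPKM + 0.1) 0.034, 0.042, 0.013 and 0.0023. With each library left out, MRPL2 ran from −0.11 to 0.00076 (without si_NC replicate 1) and MRPS34 from −0.035 to 0.013, above 0 without si_NC replicate 3 (0.011) and without si_GRB2 replicate 3.

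Same-numbered libraries of both groups had correlations of deviations of 0.23, −0.095 and 0.080, so the numbers were not taken as pairs. With a replicate block, 24 members were lower and 2 higher, with a median of −0.043.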

Other observations

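The count table also held 24 non-coding genes whose symbols carry a member's name, 18 pseudogenes and 6 lncRNAs. Of these, 5 had enough reads to test. MRPS31P5, a transcribed pseudogene, had a log2 fold change of −0.40 (standard error 0.17), MRPL45P2 of −0.25 (standard error 0.23), MRPS9-AS1 of 0.21 (standard error 0.20), MRPL20-DT of −0.15 (standard error 0.096) and MRPL20-AS1 of −0.061 (standard error 0.049). None of the 5 passed edgeR's quasi-likelihood test after adjustment, and MRPS31P5 was the one under 0.05 before it. These pseudogenes resemble members in sequence, and how reads were divided between them is not given in the sources used here.

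By chromosome, the largest counts of lower members were on chromosome 11 (5 of 7), chromosome 6 (4 of 6) and chromosome 2 (3 of 8), not in order of share, and none of the 8 on chromosome 17 passed. Over all chromosomes, 32.1% of the members and 15.5% of all tested genes were lower. The shares of all tested genes on single chromosomes were not computed. These counts of members are small and were not tested.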
